A study of Mus musculus with 8 samples.

Results

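The Fanconi anemia, homologous recombination and mismatch repair genes described here are 34 named genes out of the 55359 genes of the deposited table, and each of the 34 matched 1 row. They comprise 8 genes of the Fanconi core complex, the 2 genes of the ID2 complex, BRCA1 and BRCA2 with 3 partners, the 5 genes Rad51b, Rad51c, Rad51d, Xrcc2 and Xrcc3, then Rad54l, Rad54b and Rad52, 6 genes of end resection and the BLM helicase, 4 checkpoint kinases and the mismatch sensor gene Msh6. All 34 passed the filter on low counts.

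RNA was sequenced from untreated murine peritoneal mast cells (PMCs), which are connective tissue-like mast cells grown from peritoneal lavage. The 8 cultures were 1 of the line PMC-303, 1 of the line PMC-306 and 6 of primary wild-type (WT) PMCs, with 3 cultures each from female and male mice. All cultures carry a wild-type genotype on the mixed strain C57BL/6x129/Sv, and all were grown with IL-3 and SCF. Both lines arose spontaneously from PMC cultures and have no sex in the labels. They were kept in less FCS and less SCF than the primary cultures. The origin of the lines and the medium therefore cannot be told apart. Each line is 1 library. In the paper, PMC-306 is karyotyped as male and with an interstitial deletion on chromosome 4. A part of the PMC-303 metaphases carries an additional chromosome 8.

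Fanconi proteins recognise and unhook crosslinks between the strands of DNA, and their central step is the ubiquitination of FANCD2 and FANCI by the core complex. Homologous recombination then repairs the double-strand break: the end is resected, BRCA2 helps to build a protein filament on the single strand, and RAD54 helps this filament to invade the sister chromatid. Because a sister chromatid is needed, many of these genes are known to be transcribed mainly in S and G2 phase, whereas ATM, ATR and their targets CHEK1 and CHEK2 signal damage and MSH6 detects mismatches left by replication.

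The libraries held between 15918757 and 24180226 estimated counts, and 3 counts corresponded to 0.123 to 0.187 CPM. CPM is the estimated count relative to the library size, which was scaled by TMM (trimmed mean of M values). The 9 mast cell markers were all above 1 CPM in both lines, with summed levels of 43362 CPM for PMC-303, 40122 CPM for PMC-306 and 46914 to 73670 CPM in the primary cultures. Of the 6 macrophage markers, Adgre1 stood at 426 CPM in PMC-306 but at 2.10 CPM in PMC-303, with 3.37 to 46.4 CPM in the primary cultures, Lyz2 was highest in female culture 2 (18 CPM) and male culture 3 (5.72 CPM) and did not exceed 2.35 CPM in any other library, while Csf1r, Cd14 and C1qa did not exceed 0.230 CPM in any library and C1qb was at 0. The 4 T cell, 5 granulocyte and 6 fibroblast and mesothelial markers summed to at most 0.344 CPM, and the 4 B cell markers to at most 21.4 CPM, nearly all of it Ighm. The part of such cells in the results was not tested.

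The first question was how the genes differ between the PMC lines and primary WT PMCs. Of the 34 genes, 24 were higher and 1 was lower in both lines together than in the 6 primary cultures, whereas 18.3% of the 14529 genes tested were higher and 15.5% were lower (limma, Benjamini-Hochberg adjusted over all genes tested). The median log2 fold of the 34 genes was 1.24, beside -0.01 for all genes tested. At 4-fold or more, 12 of the 34 genes were higher, compared with 3.65% of all genes tested, and these were Rad54b, Bard1, Fancd2, Rad51c, Fanca, Fanci, Brip1, Exo1, Chek1, Brca1, Rad54l and Brca2. Below 4-fold, Xrcc3, Fancb, Msh6, Xrcc2, Fancm, Palb2, Fancf, Rbbp8, Fancc, Nbn, Blm and Mre11a were higher. Rad51d was lower, and Fance, Fancg, Fancl, Rad51b, Rad52, Rad50, Atm, Atr and Chek2 did not pass the test. In RNA from whole cultures, a smaller share of cells that express a gene and less of its RNA per cell cannot be told apart.

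**Figure D1:**
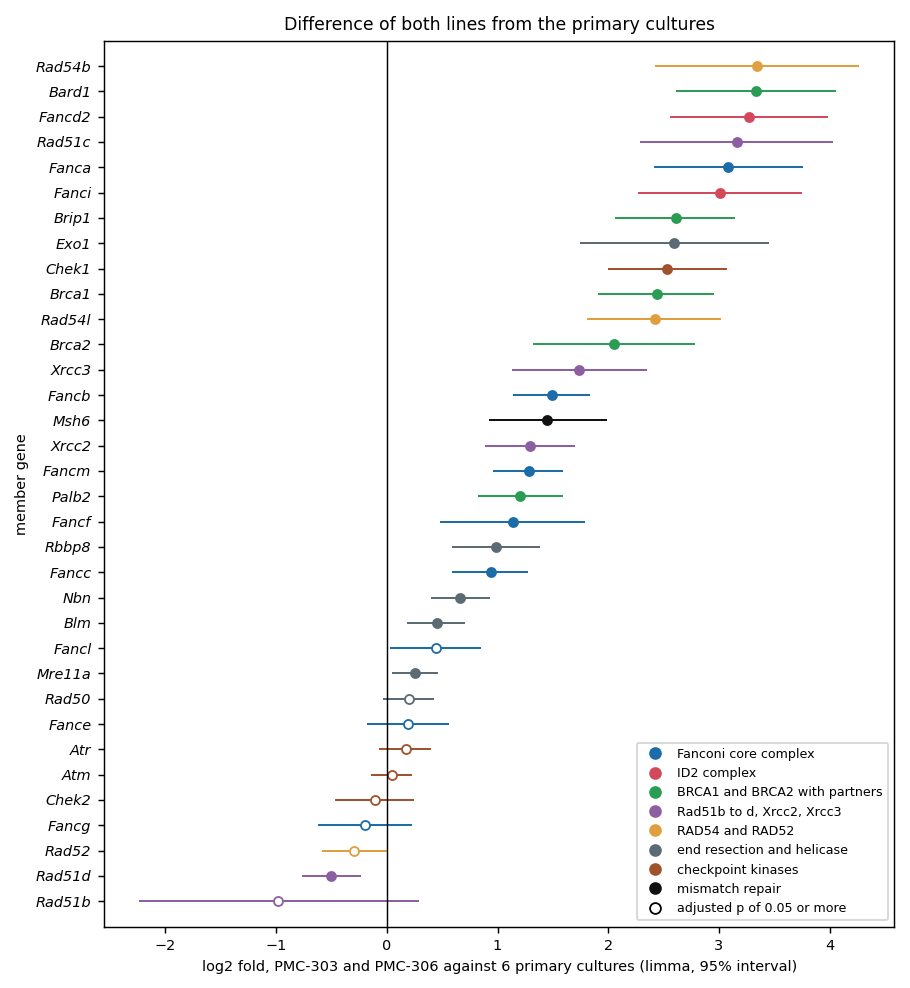
Log2 fold of each of the 34 genes in PMC-303 and PMC-306 together against 6 primary cultures (x axis), with the 95% confidence interval from limma as a line, genes ordered by fold (y axis) and coloured by role. Filled points passed the test at an adjusted p under 0.05, and the 24 filled points on the right run from Mre11a at 0.25 to Rad54b at 3.34, while Rad51d at -0.50 is the filled point on the left.

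Measured marker genes of proliferation moved with these differences. Mki67, which encodes the proliferation marker Ki-67, had 1015 CPM in PMC-303, 835 CPM in PMC-306 and 28.6 to 106 CPM in the primary cultures (log2 fold 3.77 ± 0.48 SE, adjusted p = 0.000666 by limma). Of 40 S phase genes that hold none of the 34, 38 were higher and 0 lower in both lines, with a median log2 fold of 2.31. The part of cell division in the rise of the 34 genes was not tested.

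Within the core complex, which is the ubiquitin ligase for FANCD2 and FANCI, 5 of 8 genes rose and 3 did not pass the test. Fanca (chromosome 8, 123993038 to 124045331 of GRCm39), which encodes a subunit of the complex, had 30 and 23.6 CPM in PMC-303 and PMC-306. Its primary cultures lay between 1.78 and 4.17 CPM with a median of 3.17 CPM, so that both lines were far above every primary culture. The log2 fold of both lines was 3.08 ± 0.29 (SE, adjusted p = 0.00018 by limma). Fanca lies on the chromosome of which a part of PMC-303 carries an additional copy, and its level in PMC-303 was 1.27 times that in PMC-306. Core complex genes on other chromosomes had ratios of 0.747 (Fancb), 0.873 (Fancc), 1.29 (Fancf), 1.31 (Fancm), 1.39 (Fance), 1.49 (Fancl) and 1.7 (Fancg). Over all genes described here, the median log2 ratio was 0.38. PMC-303 was higher in 30 of them and PMC-306 in 4. A part of the additional copy in the level of Fanca was not tested. Fancm, which encodes the DNA translocase that anchors the complex on chromatin, had 35.3 and 26.9 CPM in PMC-303 and PMC-306 against 11.6, 12.3 and 14.1 CPM as the lowest, median and highest primary culture (log2 fold 1.28 ± 0.13 SE, adjusted p = 0.000266 by limma). Fancb, Fancc and Fancf, which encode further subunits, had log2 folds of 1.49, 0.94 and 1.14, and the call of Fancf was lost without PMC-303 (log2 fold 0.96, adjusted p = 0.106) and with male primary cultures only (log2 fold 1.19, adjusted p = 0.085, each by limma). The X-linked Fancb and Fancc on chromosome 13 differed from most of the genes in that PMC-306 was higher than PMC-303, with 22.6 against 16.9 CPM for Fancb and 15.5 against 13.5 CPM for Fancc. Fancl, the catalytic subunit, had 31.0 and 20.8 CPM in PMC-303 and PMC-306, the latter within the primary range from 15.4 to 21.5 CPM, and did not pass the test (log2 fold 0.44, adjusted p = 0.0856 by limma). Fance also had PMC-306 within the primary range (9.62 CPM, primary cultures from 8.96 to 11.5 CPM).

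Both genes of the ID2 complex, the clamp that the core complex ubiquitinates on DNA, rose about as much as any of the 34. Fancd2 (ENSMUSG00000034023, chromosome 6, 113508412 to 113573982) had 38.8 and 28.5 CPM in PMC-303 and PMC-306, and its primary cultures had 3.54, 2.64 and 4.38 CPM in females and 4.6, 3.67 and 2.05 CPM in males. Its primary mean was 3.48 ± 0.986 CPM (SD, n = 6), and the log2 fold was 3.27 ± 0.31 (SE, adjusted p = 0.000177 by limma). Fanci had 47.3 and 31.2 CPM in PMC-303 and PMC-306 against 2.67, 5.28 and 6.43 CPM as the lowest, median and highest primary culture (log2 fold 3.01 ± 0.32 SE, adjusted p = 0.000279 by limma). In neither gene did a line overlap with the primary cultures.

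All 5 genes of BRCA1, BRCA2 and their partners rose, with log2 folds from 1.20 to 3.33. Brca1 (chromosome 11, 101379577 to 101442781), whose protein directs break ends towards resection, had 100.1 and 66.0 CPM in PMC-303 and PMC-306, and the primary cultures ran from 11.0 to 20.5 CPM with a median of 15.1 CPM (log2 fold 2.44 ± 0.23 SE, adjusted p = 0.000167 by limma). Of the Brca1 counts of all libraries 96.4% were assigned to 1 transcript. Bard1, the obligate partner of BRCA1 in its ubiquitin ligase, had 36.8 and 26.9 CPM in PMC-303 and PMC-306 against 1.78, 3.35 and 4.10 CPM, a log2 fold of 3.33 ± 0.31 (SE, adjusted p = 0.000177 by limma). Brip1, the helicase that binds BRCA1, had 46.4 and 37.7 CPM in the lines against 4.62, 7.06 and 8.48 CPM (log2 fold 2.61). Brca2, which helps to build the recombination filament, had 39.2 and 32.7 CPM against 4.98, 9.62 and 11.9 CPM, with a log2 fold of 2.05 ± 0.31 (SE, adjusted p = 0.00167 by limma). Palb2, which links BRCA1 to BRCA2, rose less, with 16.7 and 12.1 CPM against 5.21 to 6.77 CPM (log2 fold 1.20). None of the 5 genes had a line inside its primary range.

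Rad51b, Rad51c, Rad51d, Xrcc2 and Xrcc3, whose proteins assist the recombination filament, did not move together: 3 rose, 1 fell and 1 did not pass the test. Rad51c had 7.45 and 6.38 CPM in PMC-303 and PMC-306, which rest on 181 and 130 counts, against 0.315, 0.769 and 0.965 CPM as the lowest, median and highest primary culture, which rest on 6 to 21 counts. Its log2 fold was 3.16 ± 0.38 (SE, adjusted p = 0.000493 by limma). Xrcc2 had 23.3 and 16.4 CPM in the lines against 6.80, 8.22 and 8.89 CPM (log2 fold 1.29), and Xrcc3 4.73 and 3.34 CPM against 0.892, 1.11 and 1.42 CPM (log2 fold 1.74). XRCC2 works in the complex with RAD51B, RAD51C and RAD51D, and XRCC3 pairs with RAD51C. Rad51d (chromosome 11, 82763990 to 82781466) moved the other way, with 41.6 and 33.9 CPM in PMC-303 and PMC-306 against 46.3, 54.9 and 58.4 CPM, and both lines were below every primary culture. Its log2 fold was -0.50 ± 0.11 (SE, adjusted p = 0.0107 by limma), and the call was lost with deposited TPM (log2 fold -0.37, adjusted p = 0.163), with female (adjusted p = 0.0666) or male primary cultures only (adjusted p = 0.0696) and without PMC-306 (log2 fold -0.35, adjusted p = 0.0942, each by limma).

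Rad51b (ENSMUSG00000059060, chromosome 12, 79343212 to 79861464) varied more among the primary cultures than any other of the 34 genes, with the highest culture 3.63 times the lowest. Female culture 1 had 41.7 CPM, while female cultures 2 and 3 had 11.5 and 12.2 CPM, and the 3 male cultures had 34.1, 39.2 and 36.5 CPM. PMC-303 with 14.3 CPM and PMC-306 with 11.7 CPM lay next to the 2 low female cultures. The cultures thus fell into a high and a low level with no culture between 14.3 and 34.1 CPM. The values rest on 231 to 907 counts, of which 79.2% over all libraries were assigned to 1 transcript, with 232.8 and 191.2 of its counts in female cultures 2 and 3 and 679.6 in female culture 1. In both lines together the log2 fold was -0.98 ± 0.55 (SE, adjusted p = 0.206 by limma), while it was -1.49 (adjusted p = 0.00581) against the male and -0.47 (adjusted p = 0.628, both by limma) against the female cultures only.

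**Figure D2:**
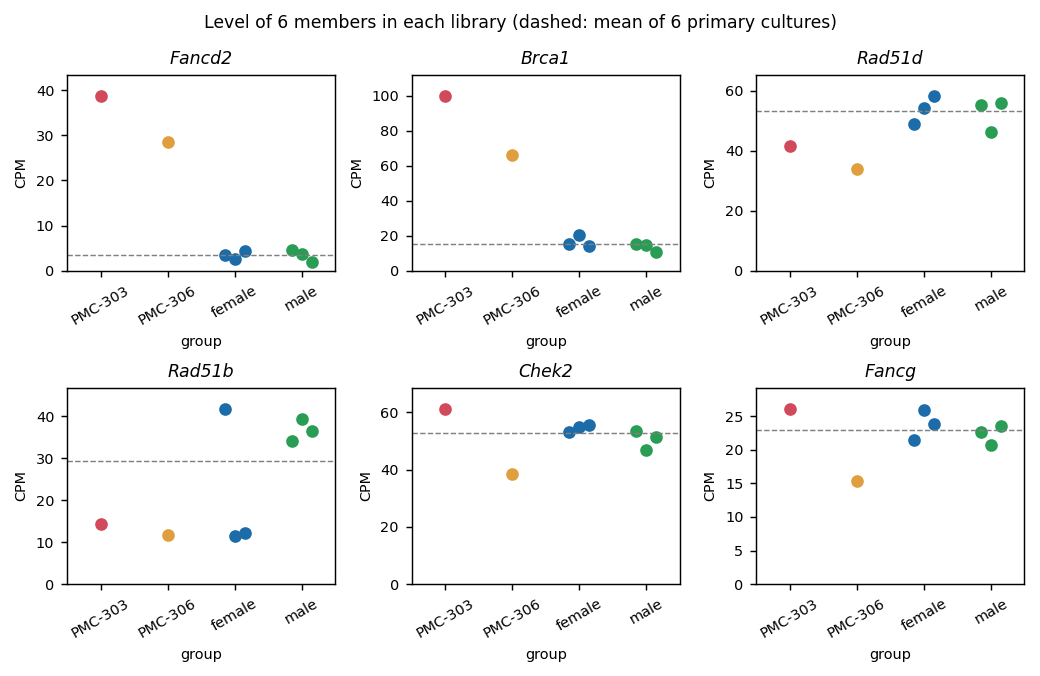
Level in CPM (y axes, from 0) of Fancd2, Brca1, Rad51d, Rad51b, Chek2 and Fancg in each library, by group (x axes), with 1 point for each line, 3 for the female and 3 for the male primary cultures and a dashed line at the mean of the 6 primary cultures. Fancd2 and Brca1 are above all primary cultures in both lines, Rad51d is below them in both, Rad51b splits the female cultures into 41.7 CPM and 11.5 and 12.2 CPM, and Chek2 and Fancg are below the primary cultures in PMC-306 alone.

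Of the RAD54 and RAD52 genes, both translocase genes rose and Rad52 did not pass the test. Rad54l had 55.3 and 36.9 CPM in PMC-303 and PMC-306 against 5.62, 8.84 and 10.7 CPM as the lowest, median and highest primary culture (log2 fold 2.42 ± 0.26 SE, adjusted p = 0.000294 by limma). Rad54b had 22 and 18.7 CPM in the lines against 0.997, 2.08 and 3.16 CPM (log2 fold 3.34 ± 0.40 SE, adjusted p = 0.0005 by limma), the highest fold of the 34. Rad54b overlaps Fsbp on the same strand, to which 50.3 and 40.7 counts were assigned in PMC-303 and PMC-306 and 3.70 to 28.0 counts in the primary cultures, so that its value is uncertain where reads could be split between both genes. Rad52, which anneals single strands, had 8.6 and 8.84 CPM in the lines against 9.36, 10.8 and 12.3 CPM, below every primary culture in both lines, without passing the test (log2 fold -0.30, adjusted p = 0.101 by limma). Rad51d and Rad52 were the 2 of 34 genes for which both lines lay below all primary cultures, compared with 20.1% of all genes tested.

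Among the genes of end resection, the exonuclease gene Exo1 had the largest rise, while the genes of the nuclease complex that starts resection rose little or did not pass the test. Exo1 had 22 and 14.6 CPM in PMC-303 and PMC-306 against 1.47, 3.17 and 4.18 CPM, a log2 fold of 2.59 ± 0.37 (SE, adjusted p = 0.00117 by limma). Of the complex of MRE11, RAD50 and NBN, which binds the break, Nbn had a log2 fold of 0.66 (adjusted p = 0.00277 by limma) and Mre11a of 0.25 (adjusted p = 0.0492 by limma), and Rad50 of 0.20 did not pass the test (adjusted p = 0.162 by limma). The call of Mre11a was lost without a filter (adjusted p = 0.118 by limma), with deposited TPM (adjusted p = 0.166), with female (adjusted p = 0.239) or male primary cultures only (adjusted p = 0.142), without PMC-303 (adjusted p = 0.332) and without any 1 of the primary cultures except female culture 2 (adjusted p from 0.0766 to 0.0835, each by limma). Rbbp8, which encodes CtIP, the cofactor of MRE11, had 86.4 and 87.9 CPM in the lines against 37.0 to 56.6 CPM (log2 fold 0.99). Blm, whose helicase dissolves recombination intermediates, had 131 and 97.7 CPM in PMC-303 and PMC-306 against 76.9, 82.0 and 90.5 CPM (log2 fold 0.45 ± 0.11 SE, adjusted p = 0.016 by limma), and its call was lost without PMC-303 (log2 fold 0.23, adjusted p = 0.122) and with female (adjusted p = 0.12) or male primary cultures only (adjusted p = 0.0815, each by limma).

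Of the 4 checkpoint kinases only Chek1 passed the test. Chek1, the effector kinase of ATR at stalled forks, had 24.4 and 17.7 CPM in PMC-303 and PMC-306 against 2.77, 3.69 and 4.55 CPM as the lowest, median and highest primary culture (log2 fold 2.53 ± 0.23 SE, adjusted p = 0.000155 by limma). Atm, the apical kinase at double-strand breaks, had 100.4 and 95.7 CPM in the lines, both inside the primary range from 88.3 to 101 CPM, and the 95% interval of its log2 fold ran from -0.13 to 0.22. Atr, the apical kinase for single-stranded DNA, had 86.2 CPM in PMC-303, above the primary range from 63.4 to 74.1 CPM, and 67.8 CPM in PMC-306, inside it. Chek2 (chromosome 5, 110987826 to 111022011), the effector kinase of ATM, had 61.2 and 38.5 CPM in PMC-303 and PMC-306 against 46.8, 53.4 and 55.7 CPM, so that the lines lay on opposite sides of the primary cultures. Msh6, whose protein detects single mismatches, had 115 and 75.7 CPM in the lines against 25.1, 35.3 and 42.3 CPM (log2 fold 1.45 ± 0.23 SE, adjusted p = 0.0019 by limma).

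**Figure D3:**
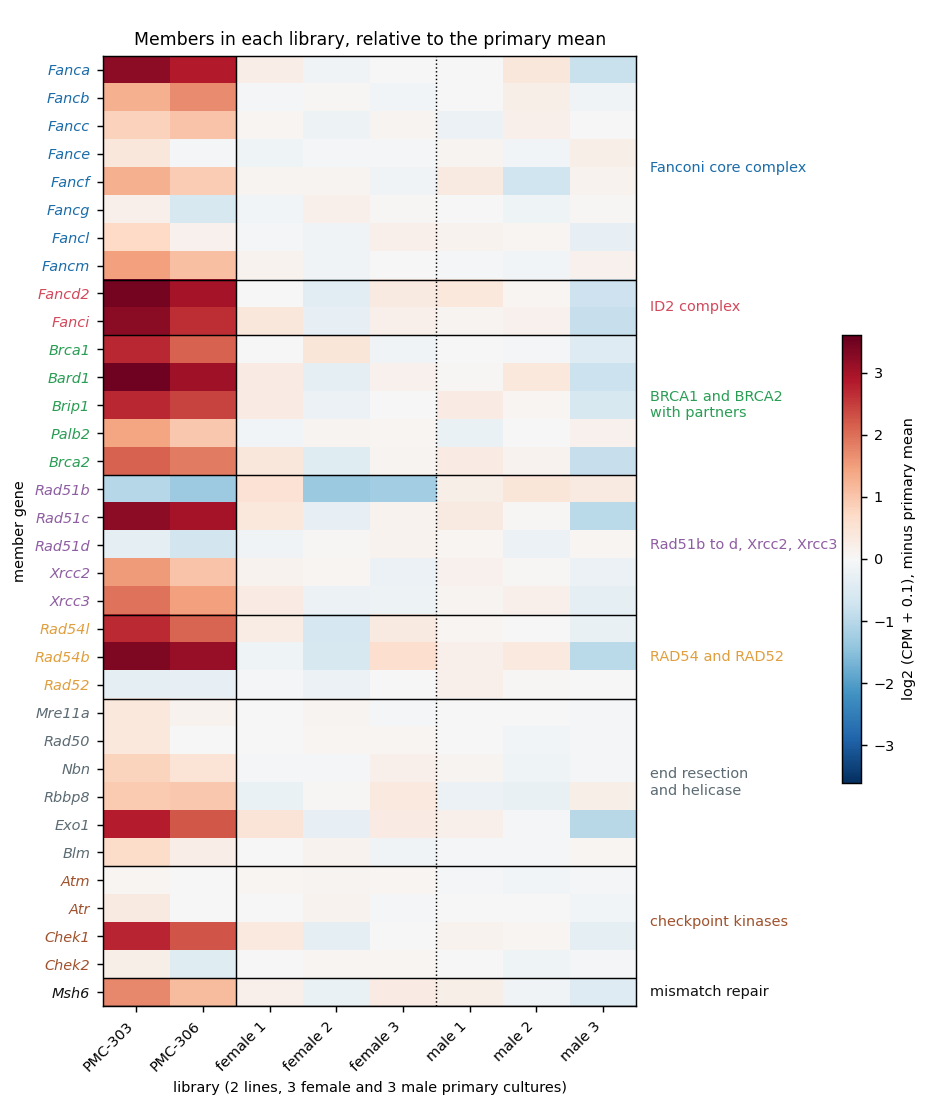
Each of the 34 genes (rows, grouped by role) in each library (columns, the 2 lines on the left, then 3 female and 3 male primary cultures), as log2 (CPM + 0.1) minus that of the mean of the 6 primary cultures. Red columns in both lines cover most genes from Fanca to Msh6 at up to 3.51 (Bard1 in PMC-303), Rad51b is blue in both lines and in female cultures 2 and 3, and male culture 3 is pale blue for many of the genes that are red in the lines.

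Levels between genes were compared per length, with the deposited TPM values. Of the TPM cells of all genes 20.8% had been rewritten by the spreadsheet program, and where the place of the decimal point was ambiguous it was set to fit the counts. In the primary cultures the highest of the 34 genes was Blm with a mean of 44.4 TPM and the lowest Rad51c with 0.424 TPM, a ratio of 105. In PMC-303 the span between the highest (Blm, 59.3 TPM) and the lowest (Xrcc3, 3.93 TPM) was 15.1-fold, and in PMC-306 it was 31.9-fold (58.9 TPM for Blm and 1.85 TPM for Xrcc3). The median gene had 2.93 TPM in the primary cultures, 12.5 TPM in PMC-303 and 9.08 TPM in PMC-306, and 19 of 34 genes were under 5 TPM in the primary cultures compared with 2 in PMC-303 and 4 in PMC-306. Ordered by the mean CPM over all 8 libraries, a split made after the values were seen, 15 of the lower 17 genes rose (median log2 fold 2.05), and 9 of the upper 17 rose and 1 fell (median log2 fold 0.44). Of all tested genes in the same ranges of mean CPM, 17.6% were higher in the lower and 24.0% in the upper range.

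The lines were then compared with the primary cultures 1 at a time, as a description, because each line is 1 library. PMC-303 was above the highest primary culture for 30 of the 34 genes and PMC-306 for 24, whereas this held for 33.4% and 32.0% of all genes tested. For 24 genes both lines were above, compared with 23.0% of all genes tested. The 4 genes with PMC-303 above and PMC-306 inside the primary range were Fance, Fancl, Rad50 and Atr. The median log2 fold over the primary mean was 1.36 in PMC-303 and 1.03 in PMC-306, and PMC-303 had the higher level in 30 genes and PMC-306 in 4 (Fancb, Fancc, Rad52 and Rbbp8). The median log2 ratio of PMC-303 over PMC-306 was 0.38 for the 34 genes and 0.05 for all genes tested.

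For Fancg and Chek2 alone the lines lay on opposite sides of all primary cultures. Fancg, a core complex subunit (chromosome 4, 43002337 to 43010527), had 26.1 CPM in PMC-303, just above the highest primary culture with 26 CPM, and 15.4 CPM in PMC-306, below the lowest primary culture with 20.7 CPM. Over the primary mean, Fancg had a log2 fold of -0.58 in PMC-306 and of 0.18 in PMC-303. Chek2 had -0.45 in PMC-306 and 0.22 in PMC-303. Each line is 1 library and both genes were picked for these values, so no p-value is given for these folds. The fit without PMC-303, which leaves PMC-306 as the only line, also had log2 folds of -0.58 for Fancg and -0.45 for Chek2. Fancg lies on chromosome 4 with Rad54b (from 11558862), Nbn (from 15957896) and Rad54l (from 115948561), and those 3 were above every primary culture in PMC-306. The deletion on chromosome 4 of PMC-306 takes up an inner part of the chromosome (bands C4 to C7), and which genes it covers was not tested. The 4 genes on chromosome 4 had 1.70 (Fancg), 1.17 (Rad54b), 1.24 (Nbn) and 1.5 (Rad54l) times the level of PMC-306 in PMC-303.

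**Figure D4:**
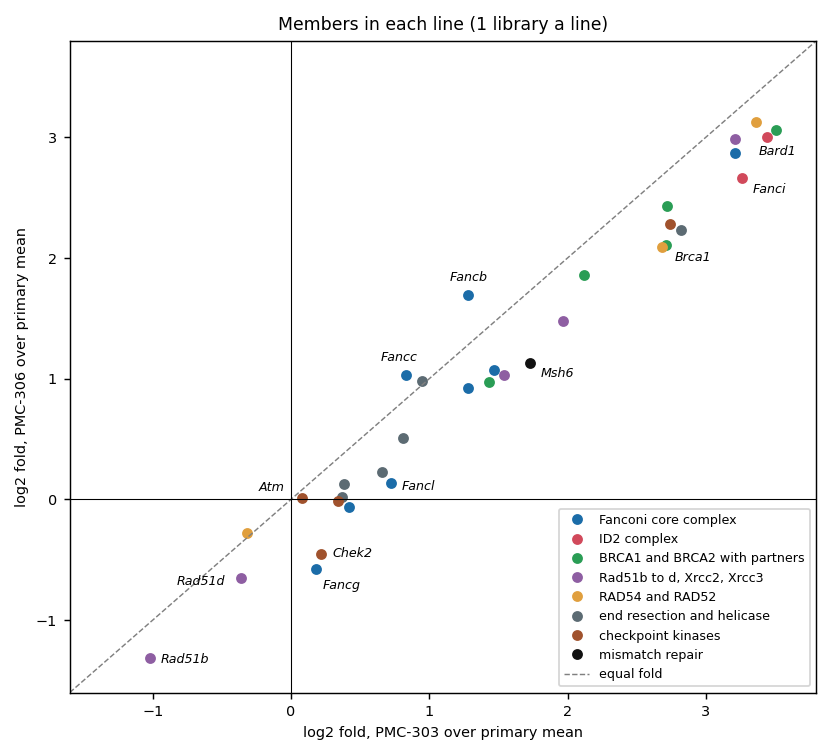
Log2 fold of each of the 34 genes over the mean of 6 primary cultures in PMC-303 (x axis) and in PMC-306 (y axis), 1 library a line, coloured by role, with the dashed line at equal folds. Of the 34 points 30 lie below the dashed line, Fancb and Fancc lie above it, and Fancg (0.18 and -0.58) and Chek2 (0.22 and -0.45) lie right of and below the zero lines.

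The genes rising together were looked up for letters of known cell cycle motifs. Windows of 250 bases before and 50 bases from the start of the canonical transcript on were read from GRCm39. The E2F motif was searched as TTTCCCGC, TTTGGCGC, TTTGCCGC or TTTCGCGC and the cell cycle homology region (CHR) as TTTGAA, each on both strands, and the 5 words do not contain each other. An E2F word stood in 5 of the 34 windows (14.7%), in 6.86% of the 2492 windows of tested protein-coding genes that were higher in the lines, in 4.09% of the 11580 windows of all tested protein-coding genes and in 2.82% of all 21770 protein-coding windows. These 5 were Bard1, Brca2, Rad51c, Chek2 and Fancg, and 3 of them belong to the 24 genes that rose and 2 to the 10 that did not. CHR stood in 4 of the 34 windows (11.8%), compared with 16.7% of tested genes that were higher in the lines and 13.7% of all tested genes. A match is a description of letters and not a site of binding. The stretches around the 3 E2F words that lie before the start site are shown, because Bard1 and Brca2 rose in both lines and Chek2 did not. Each has 60 bases of the strand of the gene, 5′ to 3′, with the word or its reverse complement in capitals, and the first capital lies 35 bases before the start site in Bard1, 157 in Brca2 and 129 in Chek2.
Bard1, GRCm39 chr1:71142307-71142366, minus strand: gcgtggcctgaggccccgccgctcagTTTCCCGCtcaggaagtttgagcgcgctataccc
Brca2, GRCm39 chr5:150445892-150445951, plus strand: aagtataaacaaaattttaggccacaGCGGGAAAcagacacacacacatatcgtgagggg
Chek2, GRCm39 chr5:110987671-110987730, plus strand: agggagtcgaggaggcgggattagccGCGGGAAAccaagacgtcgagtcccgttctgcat

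The genes behind these stretches differed in their fold in both lines, with 10.1-fold for Bard1, 4.14-fold for Brca2 and 0.925-fold for Chek2.

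Within the primary cultures the 34 genes varied with the culture. Male culture 3 was the lowest of the 6 cultures for 16 of the 34 genes, 14 of which belong to the 24 that rose in the lines and 2 to the other 10. How often male culture 3 was the lowest over all genes tested was not counted, so this is not read as particular to these genes. The median log2 fold of the 34 genes against the other 5 primary cultures was -0.13 in male culture 3 and -0.16 in female culture 2. In the other 4 cultures it lay between 0.02 and 0.10. For all genes tested the median was -0.01 in male culture 3 and in female culture 2. Male culture 3 and female culture 2 were also the cultures with the least Mki67 (28.6 and 42.7 CPM, compared with 86.6 to 106 CPM in the other 4) and the lowest median of the 40 S phase genes (-0.40 and -0.21). Of the 6 macrophage markers, Adgre1 and Lyz2 alone stood apart in the same cultures. Male culture 3 and female culture 2 had 25.3 and 46.4 CPM of Adgre1 and 5.72 and 18 CPM of Lyz2. The other 4 had at most 4.35 CPM of Adgre1 and 2.35 CPM of Lyz2. Csf1r, Cd14 and C1qa did not exceed 0.23 CPM in any library, and C1qb was at 0. What part proliferation or other cells had in the levels of the 34 genes was not tested. Fancd2, Bard1, Rad51c, Exo1 and Brca2 were lowest in male culture 3, and Rad54l was lowest in female culture 2. The genes did not follow 1 order of the cultures: female culture 2 was the lowest for 5 genes and the highest for 7, among them Brca1 with 20.5 CPM, and male culture 2, which had 87.5 CPM of Mki67, was the lowest for 8.

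The second comparison, of female with male primary cultures, called 6 of 13710 genes (0.0438%) and 0 of the 34 (limma). At an unadjusted p under 0.05 the same fit had 1 of the 34 genes and 3.33% of all genes. That gene was Atm, with 99.1, 101 and 100.2 CPM in female and 90.9, 88.3 and 90.6 CPM in male cultures, a log2 difference of female minus male of 0.15 (adjusted p = 1 by limma). It was the only 1 of 34 genes without overlap between the sexes, compared with 7.97% of all genes tested. The 95% intervals of the difference ran from -0.19 to 0.74 for Brca1, from -0.75 to 0.90 for Fancd2, and from -0.42 to 0.27 for the X-linked Fancb. Rad51b had a log2 difference of -1.02 (95% interval from -2.15 to 0.12), and without female culture 1 it was called lower in females at -1.62 (adjusted p = 0.0156 by limma). Differences of the size seen between the lines and primary cultures lie outside the first 3 of these intervals.

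The other genes of the same and neighbouring pathways were given by lists and compared in the same fit of both lines. Of 44 tested other Fanconi and homologous recombination genes, 24 rose and 4 fell (median log2 fold 0.49). The largest rises were Hrob (12.4-fold), which recruits the MCM8-MCM9 helicase, and Eme1 (8.06-fold), a partner of the MUS81 nuclease, and the largest falls were Eme2 (0.676-fold), the other MUS81 partner, and Swsap1 (0.758-fold), a recombination factor. Of the 13 other mismatch repair genes 10 rose and 1 fell (median 0.81), led by the ligase gene Lig1 (5.75-fold) and the clamp loader gene Rfc4 (4.04-fold), which also serve replication, while Mlh3 fell (0.599-fold). Of 20 other genes of damage signalling 14 rose and 0 fell (median 1.02), led by the phosphatase genes Cdc25b (13.4-fold) and Cdc25c (12.2-fold), which promote entry into mitosis.

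The lists of end joining and excision repair had lower medians. Of 16 end joining genes 5 rose and 3 fell (median 0.22). Polq (7.24-fold), the polymerase of theta-mediated joining, and Rif1 (2.69-fold) rose, and Dclre1c, which encodes the nuclease Artemis (0.616-fold), and Lig4 (0.665-fold) fell. Of 18 nucleotide excision repair genes 2 rose (Rad23b 1.52-fold, Gtf2h2 1.31-fold) and 5 fell (median 0.07), with the damage sensor gene Xpc (0.468-fold) and the nuclease gene Ercc5 (0.590-fold) at the lower end. Of 21 base excision repair genes 10 rose and 1 fell (median 0.24), with the glycosylase genes Neil3 (13-fold) and Ung (6.35-fold) at the upper end and Neil1 (0.673-fold) as the fall. The S phase list had higher values than the 34 genes, with Rrm2 (11.9-fold), which supplies nucleotides for replication, and E2f8 (9.29-fold), a repressor of E2F targets, as the largest rises.

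**Figure D5:**
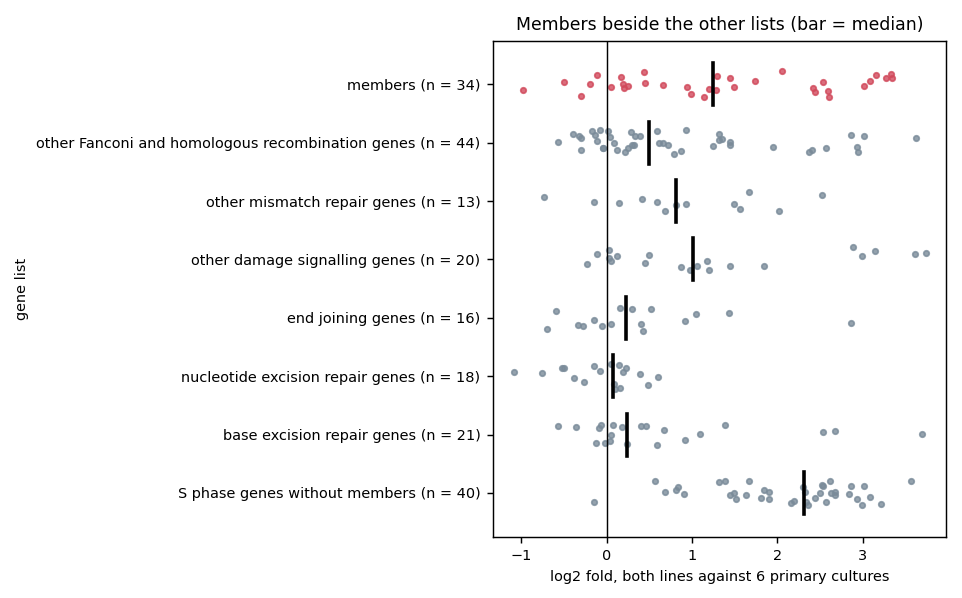
Log2 fold of both lines against 6 primary cultures (x axis) of each tested gene of the 34 members and of 7 other lists (y axis), with 1 point a gene and a black bar at the median. The medians run from 0.07 for nucleotide excision repair to 1.24 for the 34 genes and 2.31 for the S phase genes.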

How the data were processed

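Total RNA libraries were made with a stranded kit, and per the labels the authors used Trim Galore 0.6.7, STAR 2.7.9a and Salmon 1.5.2 on GRCm39. Estimated counts of genes and transcripts, not normalized, and TPM values, scaled for length and library size, were deposited by the authors. Whether counting used the strand is not given in the sources used here, and 28 of the 34 genes are overlapped by a gene on the other strand. A spreadsheet program had rewritten 3.37% of gene count cells (22 of 272 cells of the 34 genes) as dates or with additional points before deposit. These were set back to numbers, after which counts of the 34 genes and the sums of their transcripts differed by at most 0.81 counts. No column of values was left without a sample. Because cells are rewritten as text in the deposited tables, count models were not run, and limma 3.58.1 (R 4.3.3) was used on log2(CPM + 0.1) with TMM scaling over the 8 libraries and a trend of the variance, adjusted after Benjamini and Hochberg over all genes that passed a filter (a count near 10 in as many libraries as the smaller group holds, 15 summed). The lines together were tested against 6 primary cultures, and 3 female against 3 male cultures. A fold of a single line is the ratio of CPM + 0.1 to the primary mean CPM + 0.1, with no test. Folds are smaller for genes near 0 because of the added 0.1. Primary cultures are labelled as biological replicates, and chi-square per degree of freedom between any 2 of them was at least 20.6, so that none was taken for a duplicate. On simulated libraries with 200 genes changed 4-fold, 100% were recovered by limma for the lines (14 false calls, 14169 genes) and 100% for the sexes (9 false calls, 13692 genes). The simulation used a single fixed spread for all genes, gave both lines the same change and changed no gene near 0. It therefore cannot show how smaller folds, genes near 0 or lines that differ are recovered. The 34 genes, the other lists and the motifs were chosen with earlier results of these data known. Values in each library are given for the genes with a central role, for genes lower in both lines or differing between sexes, for genes on chromosomes 4 and 8 in comparison, and of each other list for the 2 largest rises and falls past the test. Coordinates are from GENCODE release M39, which holds 98.9% of the deposited genes. Alternatives were other scalings, offsets, filters, weights and choices of cultures, and fits that leave out 1 library. Counting limits cover counting error only. Calculations used Python 3.11.15, numpy 2.4.6 and pandas 2.3.3.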

Additional observations from a re-analysis of the deposited data

Results flagged for a closer look

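For 2 of the 34 genes every sample of one line lay on the opposite side of all 6 primary cultures from the other line, with 1 library a line, and this difference was not tested. Fancg had a log2 fold over the primary mean of 0.18 in PMC-303 and -0.58 in PMC-306. Chek2 had 0.22 in PMC-303 and -0.45 in PMC-306. None of the 34 genes and not Mki67 had a primary culture far enough from the other 5 to be marked as an outlying value, where chance alone would mark about 1.8 of these 35 measures.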

How the results depend on the processing

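The count of higher genes (24) stayed within 1.5 times under every alternative tried, from 21 (male primary cultures only, or rewritten genes left out, which leaves 26 of the 34 genes) to 26 with total counts as library sizes, and from 21 to 27 when each library was left out. The count of lower genes (1, Rad51d) was 0 with deposited TPM, with genes that had a rewritten cell left out and with female primary cultures only, and it ran from 0 to 3 when each library was left out, the 3 without PMC-303 and the 0 without PMC-306. The median log2 fold of the 34 genes (1.24) was 1.61 with rewritten genes left out and ran from 1.04 without PMC-303 to 1.38 without PMC-306 with each library left out. Between the sexes the count of 0 became 1 (Rad51b) without female culture 1, so that leaving out each culture gave 0 to 1. With the replicate number as a block, the replicate block, limma called 5 genes and 0 of the 34. The cultures share only a number: deviations of the same-numbered cultures correlated at 0.40, -0.22 and 0.28, and female culture 1 correlated more with male culture 2 (0.42) than with male culture 1. Of the single genes, 22 of 34 kept their direction and side of the threshold under every alternative. Signs changed for Atm with female cultures only (-0.03). With each library left out, log2 folds ran from -0.05 (without PMC-303) to 0.43 for Fance, from -0.01 (without PMC-303) to 0.34 for Atr, from -0.58 to 0.18 (without PMC-306) for Fancg and from -0.45 to 0.22 (without PMC-306) for Chek2. These 5 had not passed the test, and 19 calls were lost and 8 gained over all alternatives. The causes were not tested. The counts of genes above the primary range stayed within 29 to 31 in PMC-303 and 24 to 28 in PMC-306. Depth limits Rad51c, with 6 to 21 counts in the primary cultures.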
